A study of Mus musculus with 3 samples.

Results

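The genes described here are 10 members of the Notch pathway: the receptors Notch1, Notch2 and Notch3, the ligands Dll1 and Jag1, the receptor-modifying enzyme Lfng, and the effectors Hes1, Hes5, Nrarp and Hey1. They were chosen by symbol, each symbol matched 1 row of the feature table, and together they are 10 of 32285 features. They were measured by droplet 3′ single-cell RNA sequencing of otic vesicles, the epithelial sacs that give rise to the inner ear, pooled and dissociated from mouse embryos at stage E10.5. The CD group is 1 library from embryos heterozygous for the Sox9 Y440X allele, in which codon 440 of the transcription factor Sox9 is a stop, and the WT group is 2 libraries from wild-type embryos. The labels name no other allele, treatment or strain, and each library is a pool whose number of embryos is not given in the sources used here.

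Cells were placed by their own transcripts, counted as unique molecular identifiers (UMIs), among cells with at least 1000 genes and at most 10% mitochondrial UMIs. Otic epithelial cells had at least 1 Epcam UMI and at least 2 UMIs of Fbxo2, Hmx2, Hmx3 and Pax2 together, and were divided into Neurog1-negative cells and Neurog1-positive cells, which hold at least 1 UMI of the proneural gene Neurog1. Neuroblasts had at least 2 Neurod1 UMIs and neither Stmn2 nor Epcam, and neurons had at least 3 Stmn2 UMIs and no Epcam. Mesenchyme had at least 2 UMIs of Prrx1 and Twist1 together and no Epcam, and endothelium at least 2 of Cdh5 and Pecam1 together. No member was used to place a cell, and a cell that met the conditions of 2 groups counted in both.

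Notch receptors are cleaved when a Delta or Jagged ligand on a neighbouring cell binds them, and the freed intracellular domain joins the DNA-binding protein Rbpj to activate genes such as those of the Hes and Hey repressors. In neurogenic epithelium, cells that begin to differentiate carry Delta-like ligand and hold their neighbours back through Hes genes, which is called lateral inhibition. In the developing inner ear, Dll1 is known for restraining neuroblast formation in the neurogenic domain, and Jag1 for marking and maintaining prosensory epithelium, from which hair cells and supporting cells arise. Lfng adds sugars to the receptors and so changes which ligand they respond to, and Nrarp is a target that feeds back to limit the pathway.

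Promoter sequence was available for 8 of the 10 members, with 9 start sites, from RefSeq for build GRCm38.p6. Hes1 and Hey1 were not in that table. The 250 bases before each start were searched on both strands for GTGGGAA, the core that Rbpj binds with high affinity, which occurs in 5.42% of 32851 promoters of that length. Only Hes5 and Lfng among the 8 held a match, and both sequences are printed for this reason, 5′ to 3′ on the coding strand up to the base before the start, with the matches in capitals. TTCCCAC is GTGGGAA read from the other strand. Hes5 lies at chr4:154960673-154960922 and Lfng at chr5:140607091-140607340, both on the plus strand.
Hes5: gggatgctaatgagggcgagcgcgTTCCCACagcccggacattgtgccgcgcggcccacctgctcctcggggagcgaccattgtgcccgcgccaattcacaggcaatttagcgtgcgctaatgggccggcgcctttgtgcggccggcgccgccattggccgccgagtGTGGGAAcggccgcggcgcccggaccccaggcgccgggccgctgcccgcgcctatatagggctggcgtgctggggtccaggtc
Lfng: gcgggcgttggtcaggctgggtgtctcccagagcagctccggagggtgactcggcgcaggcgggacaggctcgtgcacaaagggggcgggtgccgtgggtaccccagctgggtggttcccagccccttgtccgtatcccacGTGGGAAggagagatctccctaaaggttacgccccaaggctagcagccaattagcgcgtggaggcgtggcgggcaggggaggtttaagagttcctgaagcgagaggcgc
The Hes5 window held its 2 matches on opposite strands, 226 and 83 bases before the start. The Lfng match began 109 bases before the start and overlapped CACGTG, a motif that Hes and Hey repressors can bind, which lay at 112 bases. CACGTG was also found in the Nrarp window, 108 bases before its start, and occurs in 6.02% of promoters. A match is a description of the letters in these windows and was not set against binding data.

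The libraries held 186439890 UMIs over 12322 barcodes in CD, 157373393 over 8330 in WT replicate 1 and 202584468 over 16649 in WT replicate 2, and 8548, 6564 and 11018 cells passed the filters. Between 64.2% and 67.8% of these cells fell into at least 1 of the 6 groups, and pairs of libraries shared 14 to 27 cell barcodes. Sox9, the altered gene, had a level of 705 CPM in the CD library, against 421 and 345 CPM in the WT libraries, in Neurog1-negative otic cells (CPM, the UMIs of a gene scaled to a common total of that cell group in that library). The 3′ counts do not read the altered codon. In Neurog1-positive otic cells the CD library had 468 CPM of Sox9, against 285 and 222 CPM in the WT libraries. The log2 ratio was 0.87 with an SE of 0.14 (adjusted p = 0.013 by edgeR), a call lost in 4 of the 12 alternatives that could be tested. Sox9 did not pass in the other 5 cell groups, with an adjusted p of 0.0749 by edgeR in Neurog1-negative otic cells and of 0.514 to 1.00 elsewhere.

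Each gate was checked against markers that did not define it. A list of 10 otic markers summed to 1041, 1471 and 1931 CPM in the Neurog1-negative otic cells of CD, WT replicate 1 and WT replicate 2, and triplets of values below keep this order of libraries. In Neurog1-positive otic cells the same list summed to 957, 1163 and 1262 CPM. The list of 13 neuroblast and neuron markers summed to 5260, 4952 and 5543 CPM in neurons and to 2091, 2245 and 1451 CPM in neuroblasts. The 9 mesenchyme markers summed to 1403, 1213 and 1143 CPM in mesenchyme. The 7 endothelial markers summed to 3037, 2867 and 2951 CPM in endothelium, but also to 238, 369 and 328 CPM in neurons. The part of endothelial transcripts in the neuron levels was not tested. Neuroblasts were the shallowest group, with 109, 94 and 136 cells and medians of 8796, 11144.5 and 8020 UMIs per cell, against 15120 to 17094 in neurons. The 8 erythroid markers summed to 40430, 51745 and 21005 CPM in neuroblasts, against 8019, 2848 and 4934 CPM in Neurog1-positive otic cells, and 2 neuroblasts per library were themselves erythroid by a globin share of at least 20%. Markers of the hindbrain, a list of 14, summed to 103, 186 and 50.3 CPM in neurons and to 81.5, 170 and 33.1 CPM in neuroblasts, but only to 13.4, 20.8 and 9.92 CPM in Neurog1-positive otic cells. WT replicate 2 stood apart in having the lowest hindbrain sum in both neural groups, and Dbx1 was at 0 in neuroblasts and neurons of all 3 libraries. The neuroblasts of WT replicate 2 also had the lowest sum of neuroblast and neuron markers. Their 5 macrophage markers summed to 103 CPM, against 1.65 CPM in CD and 0 CPM in WT replicate 1. These are sums over many cells, and fewer cells with a transcript and fewer transcripts per cell are not told apart by them.

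The 3 receptors were detected in all 6 cell groups, each with its own order. Notch1, the most widely used receptor in neurogenesis, stood at 139, 127 and 138 CPM in Neurog1-positive otic cells and at 116, 103 and 117 CPM in endothelium, where it is known for its role in arterial fate. Neither of these groups overlapped its neighbour in the order of means. Lower levels were found in neuroblasts (74.9 ± 26.6 CPM), Neurog1-negative otic cells (61.1 ± 4.32), neurons (48.6 ± 14.4) and mesenchyme (29.7 ± 6.30; means ± SD over the 3 libraries, as in all such values below), and each of these overlapped the next. WT replicate 2 was the low library in both neural groups, with 44.6 CPM in neuroblasts against 85.6 and 94.3 CPM in CD and WT replicate 1.

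Notch2, a broadly expressed receptor, was highest in mesenchyme at 17.2, 16.7 and 13.8 CPM and in Neurog1-negative otic cells at 14.7, 13.1 and 12.8 CPM, which overlapped. Its mean was 9.39 ± 1.55 CPM in Neurog1-positive otic cells, 7.72 ± 1.10 in neuroblasts, 3.83 ± 0.40 in endothelium and 3.26 ± 0.56 CPM in neurons. Notch3, a receptor best known from smooth muscle of blood vessels, was highest in the epithelium, at 41.2, 31.0 and 31.4 CPM in Neurog1-negative and 33.9, 26.4 and 28.6 CPM in Neurog1-positive otic cells. It averaged 23.5 ± 2.47 CPM in mesenchyme and under 10 CPM in endothelium, neuroblasts and neurons, which overlapped each other in order. All 3 receptors were therefore present in the otic epithelium, with Notch1 alone higher in its Neurog1-positive cells than in its Neurog1-negative cells.

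Both ligands were highest in Neurog1-positive otic cells. Dll1 stood at 52.1, 39.8 and 33.7 CPM there, at 36.2, 51.1 and 9.46 CPM in neuroblasts and at 23.5, 26.7 and 7.53 CPM in neurons, and these 3 groups overlapped in order. Endothelium followed at 5.25 ± 1.60 CPM, Neurog1-negative otic cells at 2.57 ± 0.746 and mesenchyme at 1.15 ± 0.632 CPM. WT replicate 2 was again the lowest library in neuroblasts and neurons, where its Dll1 lay below the other libraries by more than they differed from each other. Jag1 followed another order: 58.0, 74.6 and 63.1 CPM in Neurog1-positive otic cells and 44.1, 52.0 and 30.0 CPM in Neurog1-negative otic cells, without overlap. The remaining 4 groups lay below all otic values, between 7.65 and 21.2 CPM.

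Lfng, one of the Fringe glycosyltransferases, was highest in the epithelium. It stood at 72.5, 74.5 and 66.4 CPM in Neurog1-positive otic cells, at 17.9, 19.9 and 15.6 CPM in Neurog1-negative otic cells and at 11.4, 13.1 and 11.1 CPM in endothelium, with no overlap between successive groups. Neuroblasts held only 13, 2 and 14 Lfng UMIs, or 10.7, 1.73 and 9.46 CPM, neurons averaged 3.45 ± 0.656 CPM and mesenchyme 1.41 ± 0.133 CPM. The mesenchymal signal was at the level of erythroid cells, which should lack Lfng. After every cell was thinned to 5000 UMIs, 0.874%, 0.498% and 0.604% of mesenchymal cells had an Lfng UMI, against 1.03%, 0.772% and 0.741% of erythroid cells. Before thinning these shares were 2.96%, 2.77% and 1.91% of mesenchymal cells and 4.11%, 4.23% and 4.81% of erythroid cells.

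Of the effectors, Hes1, a repressor that also keeps non-neural cells in a progenitor state, was highest in mesenchyme at 428, 468 and 349 CPM and in endothelium at 317, 352 and 306 CPM. It averaged 188 ± 20.4 CPM in Neurog1-positive otic cells, 177 ± 43.1 in neuroblasts, 171 ± 12.9 in Neurog1-negative otic cells and 83.1 ± 16.6 CPM in neurons. The 3 middle groups overlapped, and neurons lay below them in every library.

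Nrarp and Hey1 were each highest in Neurog1-positive otic cells. Nrarp stood there at 65.5, 85.0 and 70.0 CPM, at 67.5, 77.9 and 53.4 CPM in neuroblasts, at 44.6 ± 8.68 CPM in neurons, 38.8 ± 3.47 in endothelium, 38.5 ± 4.87 in Neurog1-negative otic cells and 10.0 ± 4.12 CPM in mesenchyme. Hey1, a repressor of the Hairy-related family, averaged 54.7 ± 4.29 CPM in Neurog1-positive and 48.1 ± 2.34 in Neurog1-negative otic cells, 39.1 ± 9.83 in mesenchyme, 34.4 ± 7.51 in endothelium, 29.4 ± 6.68 in neurons and 23.1 ± 5.87 CPM in neuroblasts. Every neighbouring pair of groups overlapped for Hey1. Hes5, the repressor most often read as a sign of active Notch signalling in the nervous system, differed widely between libraries in the neural groups. It stood at 39.3, 48.9 and 8.53 CPM in neurons, at 25.5, 49.3 and 6.08 CPM in neuroblasts and at 10.0, 12.7 and 13.5 CPM in Neurog1-positive otic cells, and all neighbouring pairs overlapped.

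**Figure D1:**
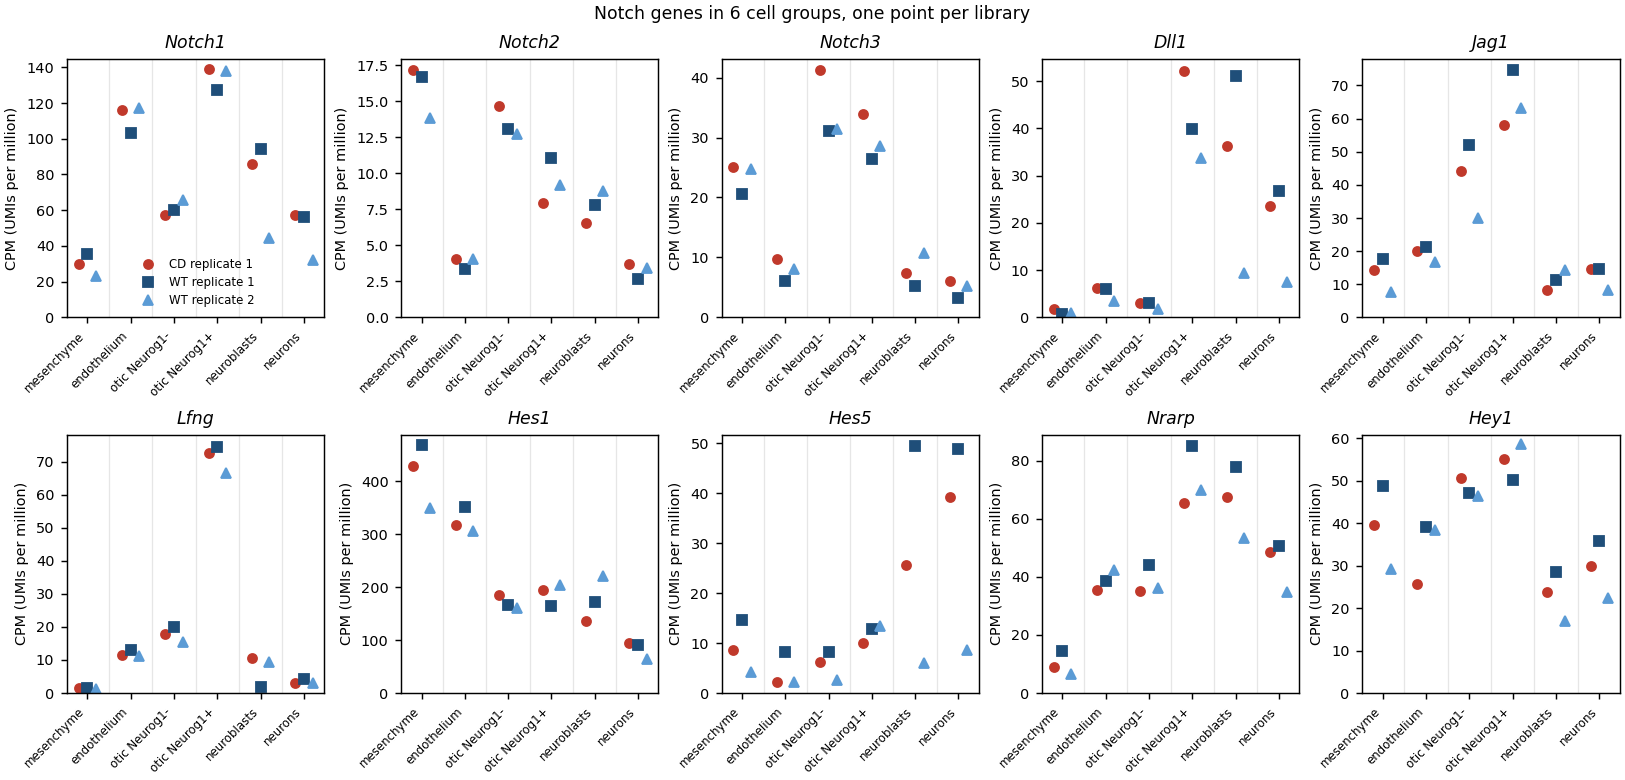
Levels of the 10 members in the 6 cell groups, in CPM on a linear axis, with 1 point for each of the CD library and the 2 WT libraries. Dll1, Jag1, Lfng, Nrarp, Notch1 and Hey1 have their highest mean in Neurog1-positive otic cells, Hes1 and Notch2 in mesenchyme, Notch3 in Neurog1-negative otic cells and Hes5 in neurons.

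The onset of neurogenesis was read from Neurog1-positive against Neurog1-negative otic cells. In the fit of all 18 sums of 6 groups by 3 libraries, with library as a block, 6 of the 10 members were higher and 1 was lower in Neurog1-positive cells, where 14.4% of all 14328 genes tested passed at an adjusted p of 0.05, 7.44% higher and 6.99% lower. Dll1 differed most, at 4.03 on the log2 scale (SE 0.25, edgeR adjusted p = 5.12e-09), followed by Lfng at 1.99 (SE 0.11, edgeR adjusted p = 1.73e-09). Notch1 was higher by 1.12 (SE 0.16), Nrarp by 0.92 (SE 0.14) and Jag1 by 0.65 (SE 0.14). For all 5 the Neurog1-positive values lay above the Neurog1-negative values in every library and did not overlap. The median log2 fold change of the 10 members was 0.79, against -0.03 over all genes.

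Hes5 also rose in that contrast, from a low level: 10.0, 12.7 and 13.5 CPM in Neurog1-positive and 6.26, 8.27 and 2.69 CPM in Neurog1-negative otic cells, or 1.14 on the log2 scale (SE 0.35, edgeR adjusted p = 0.0384). The call rested on all 3 libraries, since the adjusted p was 0.11 without the CD library, 0.0548 without WT replicate 1 and 0.129 without WT replicate 2, and 0.00107 to 0.181 over 14 alternatives. Notch2 was the member that fell, to 7.95, 11 and 9.17 CPM in Neurog1-positive cells, against 14.7, 13.1 and 12.8 CPM in Neurog1-negative cells (-0.52, SE 0.13, edgeR adjusted p = 0.012). It lost the call without the CD library (edgeR adjusted p = 0.238) and without WT replicate 2 (0.074), with a range of 0.00166 to 0.358 over 14 alternatives. Notch3 (-0.23), Hes1 (0.13) and Hey1 (0.17) did not pass the threshold. Neurog1-positive cells were also deeper, with medians of 26401, 29719 and 24259 UMIs against 22433, 25096 and 18580 in Neurog1-negative cells, and after thinning to 5000 UMIs the Notch2 call was lost and the other 6 kept their direction and call. The cells kept the groups drawn from all their UMIs, so thinning does not show the part of depth in the gate.

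Detection showed the same contrast for Dll1. After thinning to 5000 UMIs, a Dll1 UMI was found in 17.2% of CD Neurog1-positive cells (95% exact binomial interval 11.9 to 23.7), in 18.2% in WT replicate 1 (12.9 to 24.6) and in 14.7% in WT replicate 2 (10.1 to 20.5). In Neurog1-negative cells the shares were 1.45% (1.02 to 1.99), 1.41% (0.974 to 1.98) and 0.821% (0.559 to 1.16). Without thinning, 48.6%, 54.1% and 40.9% of Neurog1-positive and 6.11%, 6.62% and 3.29% of Neurog1-negative cells had a Dll1 UMI. The intervals cover counting error only, and at most 110 cells of a group were left out as shallower than 5000 UMIs. Erythroid cells, which should lack Dll1, gave 0.515%, 0% and 0.37% after thinning, with upper bounds of 1.85%, 1.41% and 2.05%, and 2.57%, 1.92% and 0.741% before it, at medians of 38250 to 42077 UMIs. The Neurog1-negative shares were above the erythroid ones in every library, thinned or not, but their thinned values lay within the erythroid upper bounds. The Neurog1-positive shares lay above those bounds.

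Within the epithelium, 3 members stood higher with each step in the amount of Neurog1 itself. Otic cells were divided by 0, 1 to 2, 3 to 5 and at least 6 Neurog1 UMIs. Dll1 stood at 2.99, 25.2, 73.3 and 101 CPM over these steps in CD, at 3.01, 21.7, 38.2 and 93.9 CPM in WT replicate 1 and at 1.71, 21.6, 54.2 and 79.9 CPM in WT replicate 2. Lfng stood at 17.9, 47.5, 99.3 and 107 CPM in CD, at 19.9, 58.7, 80.0 and 110.1 CPM in WT replicate 1 and at 15.6, 53.2, 92.9 and 103 CPM in WT replicate 2. With all UMIs counted, both were higher at every step in every library, and so was Notch1, which ran over 57.4, 103, 171 and 197 CPM in CD, 60.0, 112.5, 118 and 184 CPM in WT replicate 1 and 65.8, 128, 149 and 193 CPM in WT replicate 2. The uppermost step of WT replicate 2 held only 14 cells, and the order of the other steps does not rest on it. Median depth also ran over 22433, 24025, 29188 and 32299 UMIs per cell in CD over the 4 steps. After thinning to 5000 UMIs, with Neurog1 counted again, all 3 genes were higher at 1 to 2 UMIs than at 0 in every library, with Lfng at 87.0, 104 and 98.7 CPM against 18.3, 22.9 and 18.3 CPM. The thinned step of 3 to 5 UMIs held only 5, 10 and 9 cells. There Dll1 was higher again in all 3 libraries, but Lfng was lower than at 1 to 2 UMIs in both WT libraries, at 22.2 against 98.7 CPM in WT replicate 2, and Notch1 was lower in CD, at 120.0 against 128 CPM. For Lfng and Notch1 the order above 2 UMIs thus did not hold in all 3 libraries at matched depth.

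The other members did not follow Neurog1 in this way. Nrarp stood at 35.2, 60.5, 72.0 and 70.8 CPM in CD, at 44.1, 81.5, 84.6 and 95.6 CPM in WT replicate 1 and at 36.3, 58.7, 98.3 and 82.5 CPM in WT replicate 2, so its uppermost step was not its highest in 2 of 3 libraries. Hes5 was lower at the uppermost step than at the step of 3 to 5 UMIs in all 3 libraries, at 8.71, 3.42 and 5.15 CPM (8, 4 and 2 UMIs) against 10.7, 13.4 and 26.3 CPM (16, 26 and 34 UMIs). Jag1, Hes1, Notch2, Notch3 and Hey1 had no order of all 4 steps that held in all 3 libraries. Some differences between single steps did hold, among them Jag1, which was lowest at 0 Neurog1 UMIs in every library. Notch2 was lower at 3 to 5 UMIs than at 1 to 2 in every library. No test was run on these steps.

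**Figure D2:**
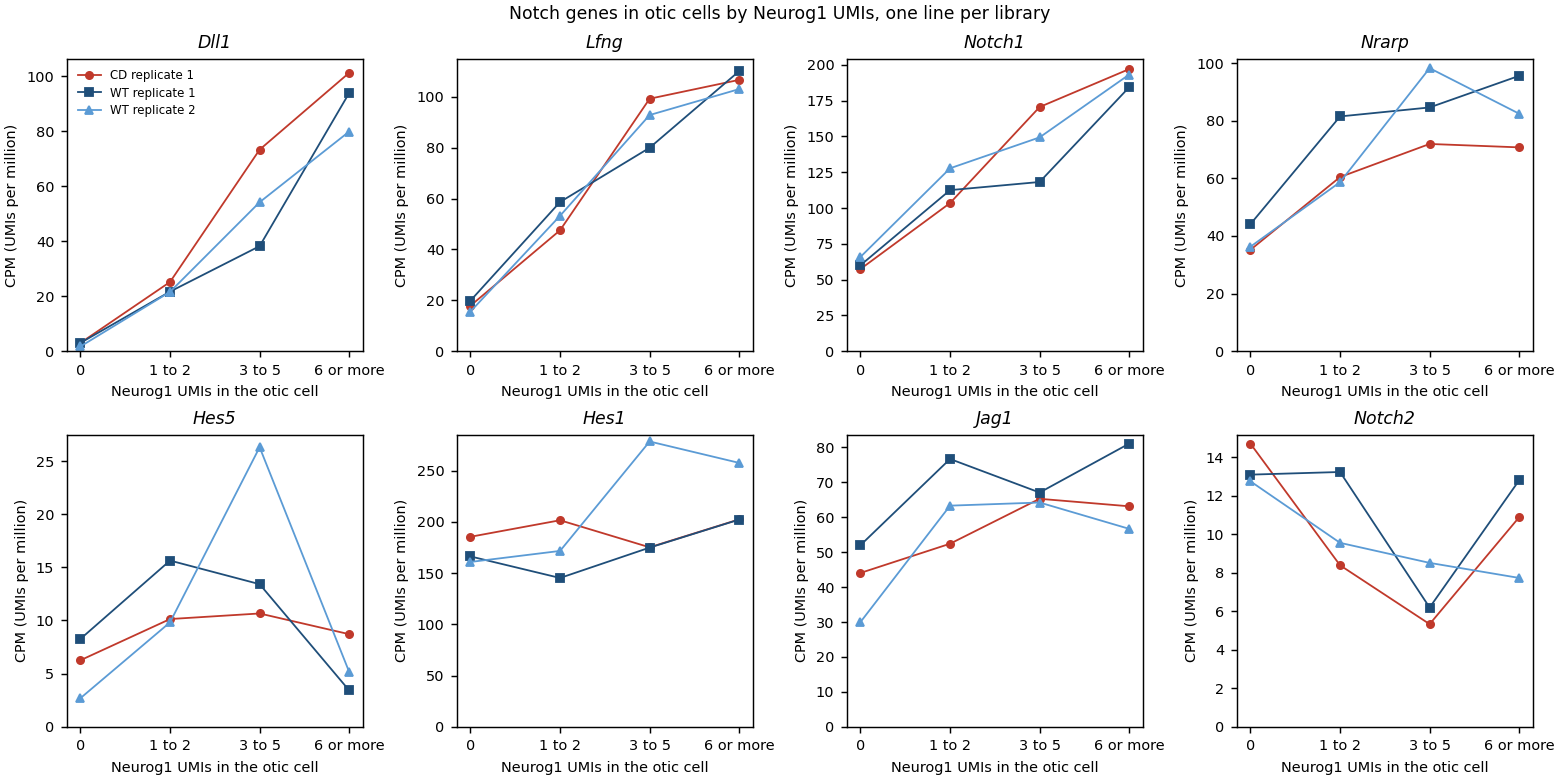
Levels of 8 of the members in otic cells divided by their number of Neurog1 UMIs (0, 1 to 2, 3 to 5, 6 or more), in CPM, with 1 line per library. Dll1, Lfng and Notch1 are higher at each step in all 3 libraries, while Hes5 is lower at the uppermost step, which holds 25, 33 and 14 cells, than at the step before it.

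Neuroblasts, gated by Neurod1 and the lack of an Epcam UMI, were then set against Neurog1-positive otic cells. Whether these cells had left the epithelium was not tested. Here 5 of the 10 members fell and 0 rose, where 22.4% of all genes passed, 11.3% higher and 11.1% lower. Lfng fell most, at -3.06 on the log2 scale (SE 0.23, edgeR adjusted p = 3.67e-07), then Jag1 at -2.33 (SE 0.29), Notch3 at -1.72 (SE 0.22), Hey1 at -1.10 (SE 0.28, edgeR adjusted p = 0.00984) and Notch1 at -0.71 (SE 0.24, edgeR adjusted p = 0.0379). None of these 5 overlapped between the groups. Dll1 (-0.30, SE 0.31), Nrarp (0.01, SE 0.20) and Notch2 (-0.11, SE 0.25) did not pass, and neither did Hes5 (1.18, SE 0.48, edgeR adjusted p = 0.0919), and the groups of all 4 overlapped. The receptor modifier, Jag1 and Notch3 were thus lower in neuroblasts, while no difference of Dll1 or Nrarp was detected against the spread of these libraries.

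The Notch1 and Hey1 calls there depended on single libraries. Without the CD library the count of members called was 3, with an adjusted p of 0.124 for Notch1 and 0.0618 for Hey1, and Notch1 also missed the threshold without WT replicate 2 (edgeR adjusted p = 0.0538). Over 15 alternatives the adjusted p ran from 5.01e-04 to 0.162 for Notch1 and from 4.11e-05 to 0.0618 for Hey1. Hes1 turned with the gate: its log2 fold change was 0.10 (edgeR adjusted p = 0.725) with all cells, but -0.63 (edgeR adjusted p = 0.0163) without cells that met 2 gates and -0.86 (edgeR adjusted p = 0.00905) with stricter gates, over a range of adjusted p of 0.00905 to 0.967. Erythroid and hindbrain markers were higher in neuroblasts than in Neurog1-positive otic cells in all 3 libraries, as given above. So were the 9 mesenchyme markers, at 297, 122 and 384 CPM in neuroblasts against 87.3, 62.3 and 117 CPM in Neurog1-positive otic cells, and their part in the Hes1 values was not tested. Without globin-rich cells, an alternative chosen after seeing the data, no member gained or lost its call in this contrast.

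Neurons against neuroblasts compared the next step. Notch2, Lfng, Hes1 and Nrarp fell in neurons and 0 members rose, so that 4 of 10 passed where 33% of all genes did, 17.8% higher and 15.2% lower. Hes1 stood at 94.3, 91.0 and 63.9 CPM in neurons and at 136, 172 and 222 CPM in neuroblasts, or -1.16 on the log2 scale (SE 0.17, edgeR adjusted p = 4.03e-05). The mesenchyme markers stood at 164, 96.9 and 159 CPM in neurons against 297, 122 and 384 CPM in neuroblasts, and WT replicate 2 was the highest library in neuroblasts for both Hes1 and this list. Their part in the difference was not tested. Notch2 stood at 3.73, 2.64 and 3.41 CPM in neurons and at 6.59, 7.79 and 8.79 CPM in neuroblasts (-1.28, SE 0.29, edgeR adjusted p = 0.00209). Nrarp stood at 48.5, 50.6 and 34.6 CPM in neurons and at 67.5, 77.9 and 53.4 CPM in neuroblasts (-0.60, SE 0.21, edgeR adjusted p = 0.0313). These 3 did not overlap between the groups, whereas Lfng did (-1.19, SE 0.35, edgeR adjusted p = 0.0141). Notch1 (-0.65), Notch3 (-0.75) and Dll1 (-0.79) had adjusted p-values of 0.0525 to 0.07, and Jag1 (0.06), Hes5 (0.21) and Hey1 (0.31) were further from the threshold.

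Of these calls, the Hes1 call held in all 15 alternatives. Only 2 members passed without the CD library, and also without Scrublet doublets and without cells bearing hindbrain markers. The Lfng adjusted p was 0.279 without the CD library and 0.259 without WT replicate 2. The Nrarp adjusted p was 0.104 without the CD library and 0.127 without WT replicate 1. Without the hindbrain-marked cells, Notch2 (edgeR adjusted p = 0.0523) and Nrarp (edgeR adjusted p = 0.0941) missed the threshold. Over 15 alternatives the adjusted p ran from 5.87e-04 to 0.279 for Lfng, from 0.00327 to 0.127 for Nrarp and from 4.17e-04 to 0.0523 for Notch2.

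**Figure D3:**
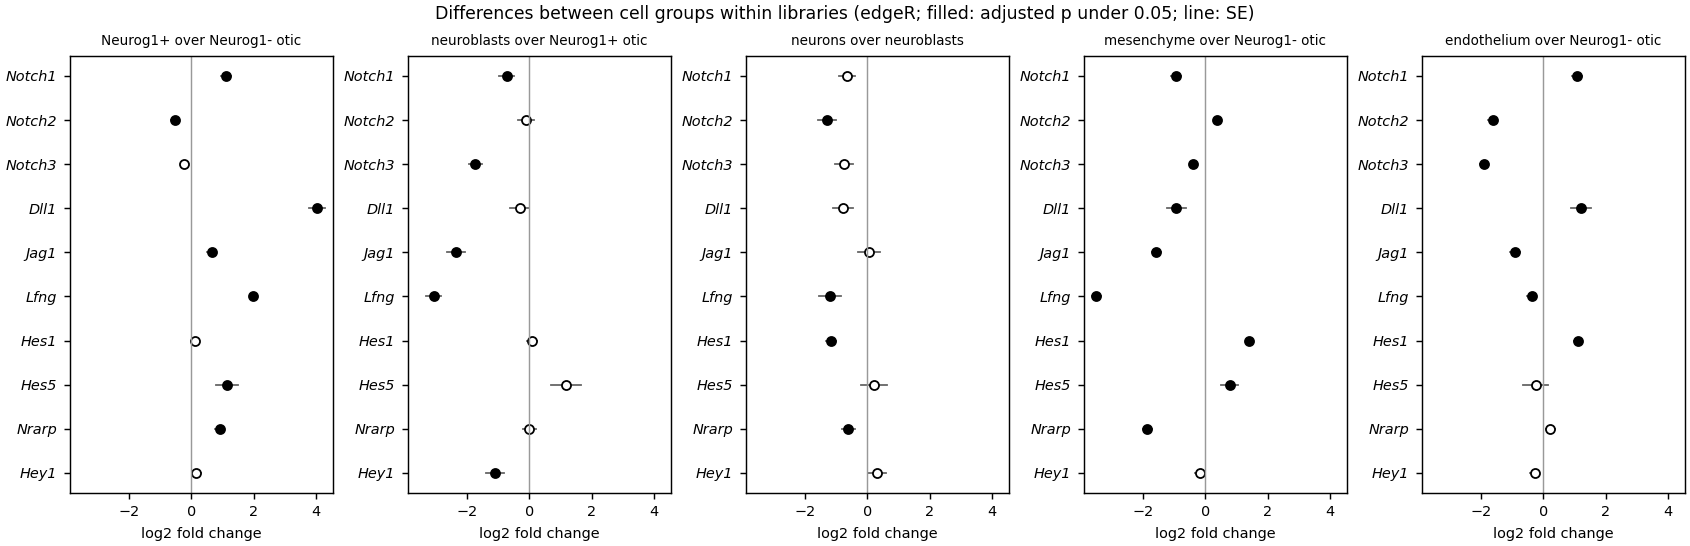
Log2 fold changes of the 10 members in the cell group contrasts with their standard errors, from edgeR fits of 18 sums with library as a block, where filled points passed the adjusted p of 0.05. Dll1 and Lfng lie furthest to the right in Neurog1-positive against Neurog1-negative otic cells, and Lfng furthest to the left in neuroblasts against Neurog1-positive otic cells.

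Hes5 and Dll1 in the neural groups moved with hindbrain markers. A UMI of any of 11 hindbrain genes was present in 26.4%, 35.7% and 15.9% of neurons and in 13.8%, 16.0% and 9.56% of neuroblasts. Hes5 stood at 82.6, 95.8 and 24.1 CPM in neurons with such a UMI and at 24.2, 20.8 and 4.74 CPM in neurons without. In neuroblasts, Hes5 stood at 108 and 229 CPM in the marked cells of CD and WT replicate 1, against 9.80 and 11.5 CPM in their unmarked cells. The 13 marked neuroblasts of WT replicate 2 held 0 Hes5 UMIs, which allows up to 16.6 CPM, and its unmarked neuroblasts stood at 6.93 CPM. In the unmarked neuroblasts, Hes5 was therefore near its level in Neurog1-positive otic cells in CD and WT replicate 1 and below it in WT replicate 2.

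Dll1 was also higher in marked neurons, at 39.7, 32.4 and 9.75 CPM, against 17.9, 23.3 and 6.99 CPM in unmarked neurons, and in marked neuroblasts of CD and WT replicate 1, at 67.0 and 125 CPM against 30.4 and 35.6 CPM in unmarked ones. The marked neuroblasts of WT replicate 2 held 0 Dll1 UMIs, which allows up to 16.6 CPM, against 10.8 CPM in its unmarked ones. Unmarked neurons and neuroblasts of every library still held Dll1 above the 2.99, 3.01 and 1.71 CPM of Neurog1-negative otic cells. WT replicate 2 had the lowest Dll1 and Hes5 in both neural groups, with or without the marker. Hes1 was also higher in marked neuroblasts of CD and WT replicate 1, at 304 and 274 CPM against 104 and 151 CPM in unmarked ones. It was lower in those of WT replicate 2, at 189 against 226 CPM. Hey1 stood at 36.1, 54.8 and 5.55 CPM in marked neuroblasts and at 21.6, 23.0 and 18.5 CPM in unmarked ones. In neurons neither Hes1 nor Hey1 had a direction that held in all 3 libraries. The part of hindbrain cells in the levels of unmarked cells was not tested.

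Cells outside the otic epithelium were compared next. Against Neurog1-negative otic cells, 3 members were higher and 6 lower in mesenchyme, where 63% of all genes passed, 32.4% higher and 30.6% lower. Hes1 rose by 1.42 on the log2 scale (SE 0.13, edgeR adjusted p = 3.52e-08), without overlap, and Notch2 by 0.38 (SE 0.10) and Hes5 by 0.79 (SE 0.28, edgeR adjusted p = 0.0218), both with overlapping groups. Hes5 stood at 8.58, 14.5 and 4.24 CPM in mesenchyme and at 6.26, 8.27 and 2.69 CPM in Neurog1-negative otic cells, higher within each library. Lfng (-3.49, SE 0.15), Nrarp (-1.86, SE 0.14), Jag1 (-1.56, SE 0.14), Notch1 (-0.93, SE 0.16), Dll1 (-0.93, SE 0.30) and Notch3 (-0.41, SE 0.08) fell. The Lfng and Dll1 counts of mesenchyme were near those of erythroid cells, so these folds are measured against background. Notch2 missed the threshold without the CD library (edgeR adjusted p = 0.0595; 0.00119 to 0.187 over 14 alternatives). Dll1 missed it without WT replicate 1 (0.0591; 2.21e-04 to 0.0591), and Hes5 missed it without the CD library (0.0858) and without WT replicate 1 (0.099; 6.63e-04 to 0.143).

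In endothelium, Dll1, Hes1 and Notch1 were higher and Notch3, Notch2, Jag1 and Lfng lower than in Neurog1-negative otic cells, 7 of 10 where 69.1% of all genes passed, 30.6% higher and 38.5% lower. Dll1 stood at 6.31, 6.03 and 3.42 CPM in endothelium (1.22, SE 0.32, edgeR adjusted p = 0.00274). Hes1 differed by 1.13 (SE 0.13, edgeR adjusted p = 4.98e-07) and Notch1 by 1.07 (SE 0.16, edgeR adjusted p = 1.56e-05). All 7 had groups without overlap. Notch3 stood at 9.81, 6.15 and 8.10 CPM in endothelium (-1.91, SE 0.12) and Notch2 at 4.07, 3.36 and 4.05 CPM (-1.62, SE 0.15). The Lfng call (-0.37, SE 0.13, edgeR adjusted p = 0.02) was lost in 6 of 14 alternatives, among them without the CD library (edgeR adjusted p = 0.175; 9.67e-04 to 0.232 over all 14). Both shares of members called, in mesenchyme and in endothelium, were read beside a background in which most genes passed.

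The otic epithelium itself, Neurog1-positive and Neurog1-negative cells together, was divided by genes that are no members. Sox2 otic cells had at least 2 UMIs of Sox2, a gene of the ventral prosensory and neurogenic epithelium, and no Dlx5. Dlx5 otic cells had at least 2 UMIs of the dorsal gene Dlx5 and no Sox2, and Otx otic cells had at least 2 UMIs of Otx1 and Otx2 and neither of the others. They numbered 527, 556 and 820 Sox2 cells, 660, 595 and 908 Dlx5 cells and 83, 84 and 222 Otx cells, with similar depths of 18728.5 to 24635 median UMIs. All 10 members differed between Sox2 and Dlx5 otic cells, 9 higher and 1 lower in Sox2 cells, where 44.6% of all 14279 genes tested passed, 22.1% higher and 22.5% lower. The same count of 10 was reached in all 14 alternatives. Their median log2 fold change was 1.71, against 0.01 over all genes. Sox2 itself stood at 157, 167 and 180 CPM in Neurog1-positive otic cells against 108, 104 and 87.0 CPM in Neurog1-negative ones. The share of Neurog1-positive cells was not matched between the domains, and its part in their differences was not tested.

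Lfng separated the domains most, at 62.3, 54.8 and 47.1 CPM in Sox2 cells against 2.26, 3.08 and 2.43 CPM in Dlx5 cells (log2 fold change 4.40, SE 0.11, edgeR adjusted p = 3.19e-12). Jag1 stood at 77.9, 78.1 and 51.2 CPM in Sox2 cells against 14.1, 21.3 and 13.6 CPM in Dlx5 cells (2.09, SE 0.10, edgeR adjusted p = 7.63e-10). Dll1 stood at 14.2, 9.58 and 8.09 CPM in Sox2 cells against 2.45, 2.35 and 1.52 CPM in Dlx5 cells (2.34, SE 0.18, edgeR adjusted p = 1.44e-07). None of the 3 overlapped between the domains. The effectors were higher too: Hes5 by 2.25 (SE 0.21), Nrarp by 1.72 (SE 0.07), Hey1 by 1.70 (SE 0.11) and Hes1 by 0.81 (SE 0.08). Hey1, for example, stood at 79.2, 68.1 and 75.4 CPM in Sox2 cells against 23.0, 27.1 and 19.7 CPM in Dlx5 cells. Of the receptors, Notch3 was higher by 0.42 (SE 0.06) and Notch1 by 0.35 (SE 0.07, edgeR adjusted p = 0.00136), and Notch2 was lower, at 8.13, 9.0 and 10.1 CPM in Sox2 cells against 18.5, 19.0 and 17.3 CPM in Dlx5 cells (-0.98, SE 0.10, edgeR adjusted p = 1.75e-06). Only Notch3 had overlapping groups.

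Otx otic cells stood between the others for several members. Against Dlx5 cells, Nrarp (1.42, SE 0.10), Lfng (1.26, SE 0.25), Hey1 (0.99, SE 0.16), Jag1 (0.96, SE 0.15) and Notch3 (0.42, SE 0.09) were higher and Notch2 (-0.51, SE 0.13) and Notch1 (-0.37, SE 0.11) lower, 7 of 10 where 25.8% of all genes passed, 12.2% higher and 13.6% lower. Nrarp stood at 45.6, 52.2 and 50.3 CPM in Otx cells against 17.1, 23.5 and 16.7 CPM in Dlx5 cells. Dll1 had 6, 1 and 4 UMIs in the Otx cells of the 3 libraries. Hes1 (0.03), Hes5 (0.54) and Dll1 (-0.72) did not pass. Without WT replicate 2, which held most Otx cells, 4 members passed, and the adjusted p was 0.486 for Notch1, 0.0846 for Notch2 and 0.067 for Notch3. Notch1 also missed without the CD library (edgeR adjusted p = 0.0539), and Lfng missed after thinning (edgeR adjusted p = 0.124; 7.32e-06 to 0.124 over 14 alternatives). Over 14 alternatives the adjusted p ran from 1.05e-05 to 0.486 for Notch1, from 0.00291 to 0.0846 for Notch2 and from 6.72e-04 to 0.067 for Notch3.

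Against Otx cells, Sox2 cells had 8 members higher and 0 lower, where 13.3% of all genes passed, 6.91% higher and 6.44% lower. Lfng (3.15, SE 0.16), Dll1 (3.06, SE 0.32), Hes5 (1.70, SE 0.30), Jag1 (1.12, SE 0.13), Hes1 (0.78, SE 0.09), Notch1 (0.72, SE 0.11), Hey1 (0.71, SE 0.14) and Nrarp (0.29, SE 0.08, edgeR adjusted p = 0.0363) passed, all without overlap. Notch2 (-0.47) and Notch3 (0.00) did not. The Nrarp call was lost in 7 of 14 alternatives, including each library left out in turn (edgeR adjusted p of 0.136 without the CD library, 0.0903 without WT replicate 1 and 0.0748 without WT replicate 2, with 0.00176 to 0.271 over all 14). The Hes5 call was lost after thinning (edgeR adjusted p = 0.211; 1.66e-08 to 0.211 over 14 alternatives). Hey1 missed the threshold without WT replicate 2 (edgeR adjusted p = 0.122; 1.33e-17 to 0.122 over 14 alternatives). Nrarp was thus the member closest between Sox2 and Otx cells among those that passed, although both domains lay well above Dlx5 cells.

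**Figure D4:**
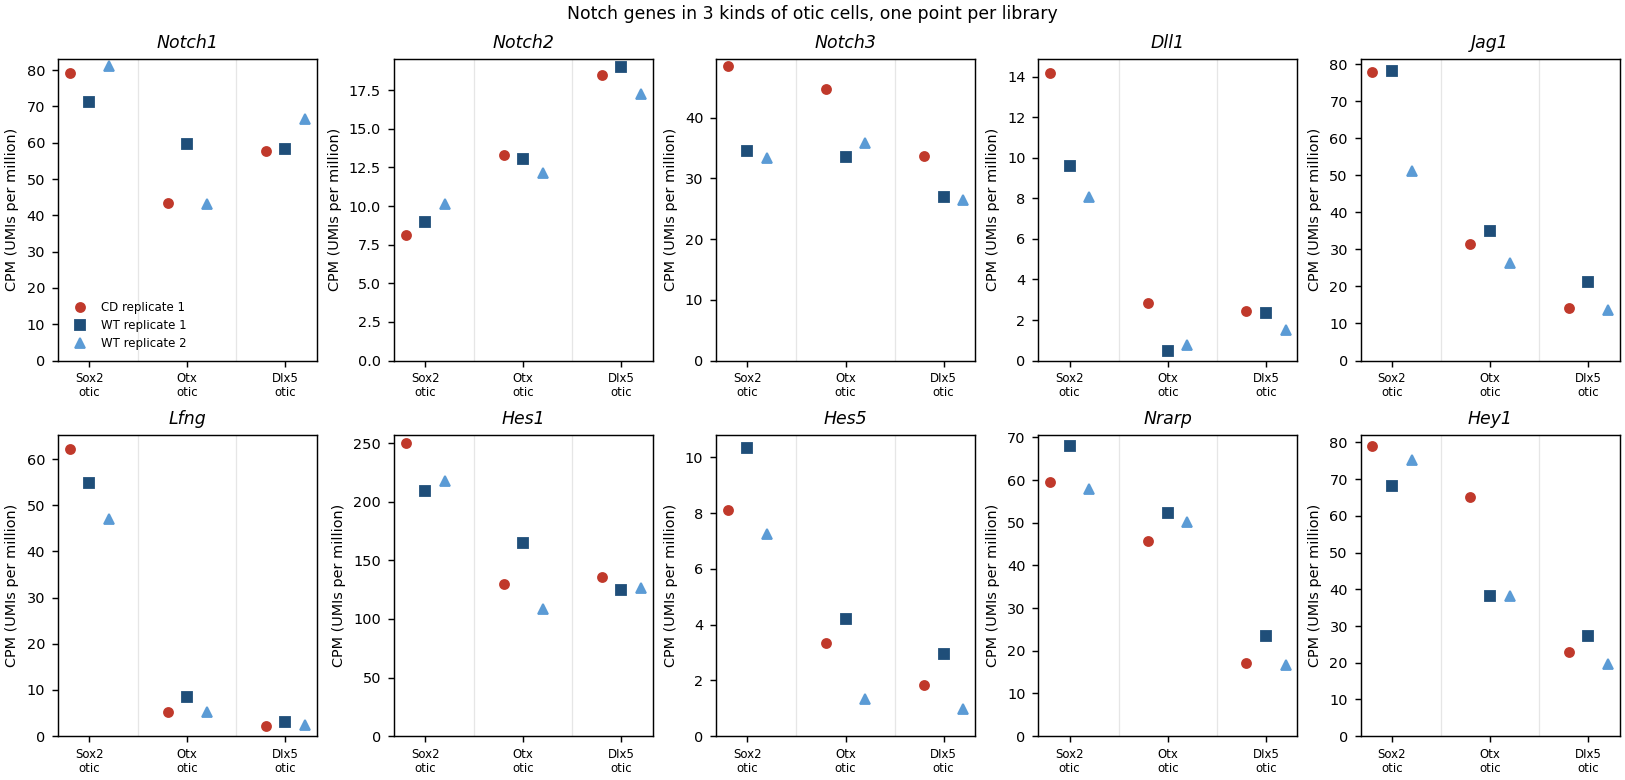
Levels of the members in Sox2, Otx and Dlx5 otic cells in CPM on a linear axis, with 1 point per library. Lfng, Jag1 and Hey1 are highest in Sox2 cells and lowest in Dlx5 cells in all 3 libraries, Nrarp is high in both Sox2 and Otx cells, and Notch2 is highest in Dlx5 cells.

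The ligand-bearing cells were next set against other cells of the same gate. Among Neurog1-positive otic cells, 85, 98 and 81 had a Dll1 UMI and 90, 83 and 117 had none. Of the 9 other members, 4 were higher in Dll1-positive cells and 0 lower, where 0.725% of all 11041 genes tested passed, 0.471% higher and 0.254% lower. Lfng stood at 98.0, 101 and 92.3 CPM in Dll1-positive cells against 44.1, 41.6 and 46.4 CPM in Dll1-negative cells (log2 fold change 1.15, SE 0.10, edgeR adjusted p = 3.39e-04). Notch1 stood at 182, 149.9 and 185 CPM in Dll1-positive cells against 90.2, 99.5 and 102 CPM in Dll1-negative cells (0.83, SE 0.09, edgeR adjusted p = 8.40e-04). Neither Lfng nor Notch1 overlapped between the groups, so the summed level of the receptor was higher in the cells with a UMI of the ligand. The split was not matched for Neurog1. With all UMIs counted, Dll1, Lfng and Notch1 each stood higher in otic cells with more Neurog1 UMIs, as given above. The part of Neurog1 in these differences was not tested.

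Both Hes genes were also higher in Dll1-positive cells. Hes5 stood at 13.6, 18.3 and 20.6 CPM in Dll1-positive cells against 6.02, 5.90 and 7.96 CPM in Dll1-negative cells (1.41, SE 0.22, edgeR adjusted p = 0.0107). Hes1 stood at 203, 199.8 and 269 CPM in Dll1-positive cells against 185, 121 and 153 CPM in Dll1-negative cells (0.57, SE 0.11, edgeR adjusted p = 0.0363). These calls needed both WT libraries: 2 members passed without WT replicate 1 or without WT replicate 2, with edgeR adjusted p-values of 0.0861 and 0.0584 for Hes5 (2.52e-07 to 0.0861 over 13 alternatives) and of 0.162 and 0.181 for Hes1 (1.98e-10 to 0.181 over 14). Nrarp (0.47, edgeR adjusted p = 0.0837), Jag1 (0.27), Hey1 (0.22), Notch3 (0.08) and Notch2 (-0.07) did not pass. Dll1-positive cells were deeper, with medians of 28758, 32090.5 and 27201 UMIs against 24141.5, 26791 and 21981 in Dll1-negative cells. After thinning to 5000 UMIs, Lfng (0.94), Notch1 (0.94) and Hes1 (0.65) still passed, and Hes5 was not among the genes tested. The Dll1 split was drawn before thinning and not redrawn, so thinning does not show the part of depth in the split itself.

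Jag1 divided the Neurog1-negative epithelium. Cells with at least 2 Jag1 UMIs numbered 663, 765 and 559, and cells with none 1411, 1076 and 2556. Lfng (1.83, SE 0.08), Hey1 (0.88, SE 0.04), Nrarp (0.76, SE 0.04), Hes1 (0.58, SE 0.05), Notch3 (0.43, SE 0.04) and Notch1 (0.39, SE 0.04) were higher and Notch2 (-0.35, SE 0.07, edgeR adjusted p = 0.00257) lower in Jag1-high cells, 7 of 9 where 34.6% of all 14811 genes tested passed, 16.9% higher and 17.6% lower. Lfng stood at 32.9, 30.6 and 33.4 CPM in Jag1-high cells against 7.95, 10.0 and 8.56 CPM in Jag1-negative cells, and Hey1 at 71.1, 60.8 and 70.2 CPM against 36.9, 33.8 and 35.3 CPM. All 7 had groups without overlap. Hes5 (0.54, SE 0.22, edgeR adjusted p = 0.0808) and Dll1 (0.08, SE 0.20) did not pass. The depth gap was wide, with medians of 29253, 31695 and 25490 UMIs in Jag1-high cells against 19495, 20685 and 16661 in Jag1-negative cells, and the Notch2 call was lost after thinning and with DESeq2 (adjusted p of 1.17e-05 to 0.079 over 14 alternatives). Here too the split was drawn before thinning and not redrawn. It was not matched for the domains above: Sox2 stood at 179, 148 and 147 CPM in Jag1-high cells against 58.3, 60.3 and 59.7 CPM in Jag1-negative cells. The part of the domains in these differences was not tested.

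Whether the ligands share cells was read after thinning. Of 174, 181 and 197 Neurog1-positive cells, 30, 33 and 29 had Dll1, 42, 45 and 41 had Jag1, and 11, 5 and 7 had both. Jag1 was found in 36.7%, 15.2% and 24.1% of the cells with Dll1, against 21.5%, 27.0% and 20.2% of the cells without. The direction differed between libraries, so no preference for or against a shared cell was seen at this depth.

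The study's own comparison, CD against WT, was made for each member in each of the 6 cell groups, 60 comparisons in all. By edgeR 0 of the 60 passed, and DESeq2 also called 0, while 5 had an unadjusted p under 0.05. Over all genes, 0.212% passed in Neurog1-negative otic cells (0.0529% higher in CD, 0.159% lower), 0.22% in Neurog1-positive otic cells (0.118% higher, 0.102% lower) and 0.214% in neuroblasts (0.118% higher, 0.0964% lower). In neurons 0.115% passed (0.101% higher, 0.0144% lower), in mesenchyme 0.0384%, all higher, and in endothelium 0.319% (0.117% higher, 0.203% lower). With 1 CD library against 2 WT libraries, the CD library is assumed to vary like WT, an exact permutation test of a single value could not go below p = 0.333. Whether the pools of WT embryos came from separate litters is not stated, so the p-values speak only to how far these libraries differ, a spread that could be technical. The median size of the 60 log2 fold changes was 0.193.

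The smallest unadjusted p-values belonged to Hey1, Dll1 and Hes5. Dll1 in Neurog1-positive otic cells had 52.1 CPM in the CD library, against 39.8 and 33.7 CPM in the WT libraries, a difference of 0.48 on the log2 scale with an SE of 0.17 (edgeR adjusted p = 0.76). Hey1 in endothelium had 25.8 CPM in the CD library, against 39.2 and 38.3 CPM in the WT libraries (-0.62 with an SE of 0.21, edgeR adjusted p = 0.374). Hes5 in endothelium had 2.24 CPM in the CD library, against 8.24 and 2.15 CPM in the WT libraries (-1.25 with an SE of 0.52, edgeR adjusted p = 0.91), the largest of the 60 by size, and CD lay between the WT libraries. The other unadjusted p-values under 0.05 belonged to Notch3 in Neurog1-negative otic cells, with 41.2 CPM in the CD library, against 31.0 and 31.4 CPM in the WT libraries (0.34 with an SE of 0.15), and to Dll1 in mesenchyme, which was near background.

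CD lay above both WT libraries in 20 of the 60, below both in 11 and between them in 29. In Neurog1-negative otic cells CD was above both for 4 of 10 members and below both for 2, where 44.0% of genes of at least 10 CPM lay above and 20.5% below. In Neurog1-positive otic cells it was above both for 3 and below both for 4, where 35.2% lay above and 30.1% below, and in neuroblasts above for 1 and below for 3, where 27.1% lay above and 31.6% below. In neurons it was above both for 5 and below both for 0, where 29.0% lay above and 28.1% below. In mesenchyme it was above both for 4 and below both for 0 (35.0% and 22.6%), and in endothelium above for 3 and below for 2 (38.6% and 27.6%). Notch3 was the member with CD above both WT libraries in otic cells of either kind, neurons, mesenchyme and endothelium, at 33.9 CPM against 26.4 and 28.6 CPM in Neurog1-positive otic cells and 9.81 against 6.15 and 8.10 CPM in endothelium. A test of whether the genotype difference varied between cell groups called 0 members (edgeR, with a smallest unadjusted p of 0.351, for Hes1), where 0.00698% of all genes passed.

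**Figure D5:**
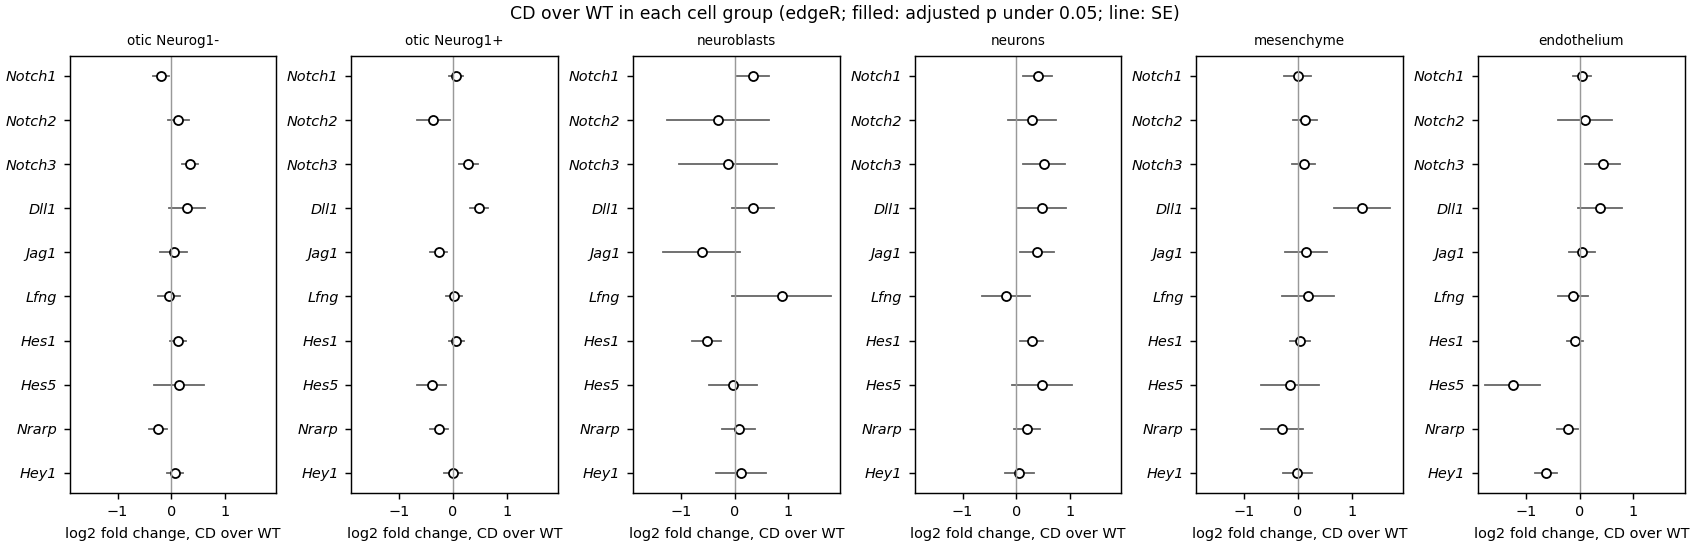
Log2 fold changes of the 10 members, CD against WT, in the 6 cell groups with their standard errors, from edgeR fits of 1 CD and 2 WT libraries per group. No value passed the adjusted p of 0.05, and the largest by size is Hes5 in endothelium at -1.25.

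A list of 52 other pathway genes was read beside the members, 46 to 47 of which were tested in each cell group or domain contrast. In Neurog1-positive against Neurog1-negative otic cells 12 rose and 1 fell, 13 of 47 where 14.4% of all genes passed. Mfng, a Fringe relative of Lfng, stood at 76.1, 75.4 and 79.9 CPM in Neurog1-positive cells against 7.60, 6.52 and 8.07 CPM in Neurog1-negative cells (log2 fold change 3.38, SE 0.13). Hes6, a Hes relative known for promoting rather than blocking neurogenesis, stood at 423, 343 and 411 CPM in Neurog1-positive cells against 63.6, 55.2 and 70.2 CPM in Neurog1-negative cells (2.63, SE 0.11). Numbl, a relative of the Notch inhibitor Numb, also rose (1.83), and Gata2 fell (-1.27).

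In neuroblasts against Neurog1-positive otic cells 5 rose and 9 fell, 14 of 47 where 22.4% of all genes passed. The count was 6 without the CD library, 9 without WT replicate 1 and 6 after thinning. Dll3, a divergent Delta that acts within the cell, stood at 28.8, 64.0 and 13.5 CPM in neuroblasts against 5.49, 7.0 and 5.99 CPM in Neurog1-positive cells (2.63, SE 0.45), while Hes6 rose by a further 0.58. Dlk2 (1.06, edgeR adjusted p = 0.0493) lost its call in 6 of 15 alternatives, among them without the CD library and without WT replicate 1. Dtx4, a Deltex ubiquitin ligase, fell (-1.76), as did Sox2 (-1.26) and Gata3 (-1.25), the last 2 of which missed the threshold without the CD library. In neurons against neuroblasts 8 rose and 8 fell, 16 of 47 where 33% of all genes passed, a share near the background, and the count was 9 without the CD library and 8 after thinning. Nrp1 (2.04) and Mfng (0.61) were among the higher and Dlk2 (-2.63) and the cell cycle gene Ccnd1 (-1.94) among the lower. The Mfng call was lost without WT replicate 2. The 7 endothelial markers also stood higher in neurons, at 238, 369 and 328 CPM against 11.5, 119 and 101 CPM in neuroblasts. Their part in the Nrp1 and Mfng differences was not tested.

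In mesenchyme 11 were higher and 18 lower than in Neurog1-negative otic cells, 29 of 47 where 63% of all genes passed. Among those with a mean of at least 10 CPM, the largest changes were of Nrp1 (2.55), Dlk1 (1.88) and Heyl (1.46) and of Sox2 (-3.77). In endothelium 14 were higher and 21 lower, 35 of 47 where 69.1% of all genes passed. Both shares are near the background. Dll4, the Delta ligand of arteries and sprouting vessels, stood at 21.3, 19.4 and 24.3 CPM in endothelium against 0.243, 0.163 and 0.37 CPM in Neurog1-negative otic cells (6.56, SE 0.28). Nrp1 (5.28) and Mfng (3.95) followed among genes with a mean of at least 10 CPM, so Mfng was higher in endothelium and in Neurog1-positive cells alike.

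In Sox2 against Dlx5 otic cells 16 rose and 5 fell, 21 of 46 where 44.6% of all genes passed, a share near the background. After thinning 13 passed. Hey2, the closest relative of Hey1, stood at 20.8, 17.5 and 18 CPM in Sox2 cells against 2.89, 2.14 and 2.73 CPM in Dlx5 cells (2.86, SE 0.13), and Mfng (2.45) and Dlk1 (1.33) were higher as well, while Gata2 was lower (-1.38). Against Dlx5 cells, Otx cells had 11 higher and 2 lower, with Dlk1 at 1.72 and Gata2 at -1.92, where 25.8% of all genes passed. This count of 13, of 46 tested, was also near the background. It was 8 without the CD library, 7 without WT replicate 2, 7 after thinning and 8 with DESeq2. Against Otx cells, Sox2 cells had 7 higher and 1 lower, with Mfng at 1.49, where 13.3% of all genes passed. This count of 8 was 4 without WT replicate 2 and 5 after thinning, with DESeq2 and with stricter gates. In Dll1-positive cells Mfng (1.08) and Hes6 (0.65) of 41 tested passed, both higher, where 0.725% of all genes did, and the count was 7 without the CD library and 9 with no filter on low counts. In Jag1-high cells 13 of 48 were higher and 3 lower, where 34.6% of all genes passed, again a share near the background. They were led among those with a mean of at least 10 CPM by Sox2 (1.36). The count was 9 after thinning and with DESeq2. In CD against WT 0 of these genes passed by edgeR in any of the 6 cell groups.

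The patterns of the members over the 18 sums were last compared with those of 9604 other genes, as Pearson's r of log2(CPM + 1), a description over sums that share libraries and differ in depth. Dll1 was most like Susd6 (0.96), Btg2 (0.94) and Gadd45g (0.92), and Notch3 most like Col2a1 (0.97), Ephb3 and Farp1. Notch2 was most like Ccnd2 (0.96), Lfng most like Prr15 (0.92), Jag1 most like Il17rd (0.93), Hes1 most like Smim11 (0.94) and Hes5 most like Mex3d (0.92). Nrarp was most like Ccnjl (0.92), Notch1 most like Prag1 (0.90) and Hey1 most like Tank (0.87). Among the members themselves the closest pairs were Jag1 and Lfng (0.85), Notch2 and Notch3 (0.84) and Dll1 and Nrarp (0.81). The most opposed were Hes1 and Nrarp (-0.55) and Dll1 and Hes1 (-0.53).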

How the data were processed

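Counts are those the authors deposited, UMIs per gene and cell barcode in filtered matrices, made with Cell Ranger 6.0 on build mm39, per the submitters' processing notes. The libraries were Chromium Next GEM 3′ v3.1 kits, per the labels' protocols. How introns and ambiguous reads were treated is not given in the sources used here. The members and all gene lists were chosen with earlier results of these data known. From the deposited counts, cells with at least 1000 genes and at most 10% mitochondrial UMIs were gated by marker UMIs (scanpy 1.11.5, python 3.11.15), and UMIs were summed per library and cell group. Doublets were not removed, and their removal by Scrublet was an alternative. The sums were tested with edgeR 4.0.16 in R 4.3.3: TMM scaling, filterByExpr, the quasi-likelihood test and Benjamini-Hochberg adjustment over all genes tested, at 0.05. Contrasts of cell groups kept the library as a block, since every group comes from the same 3 libraries. CD against WT was fitted for each cell group. Levels are CPM, and log2 fold changes come from the fits. Each SE was worked back from the test, as the size of the log2 fold change over the square root of the quasi-likelihood F. Shares of cells were taken after thinning to 5000 UMIs, with 95% exact Clopper-Pearson intervals, which cover counting error only. Thinned cells kept the groups drawn from all their UMIs, except that the steps of Neurog1 UMIs and the shared ligands were counted again. The alternatives were DESeq2 1.42.0, other scalings, filters and gates, thinning, and leaving out doublets, cells in 2 gates, hindbrain-marked cells or each library. The fits were tested on simulated data. Other genes of the pathway were named by rule from the 3 with the largest change in each direction among those that passed with a mean of at least 10 CPM over the 2 groups compared. Passing genes below that level were not named, whatever the size of their change. Similar patterns were named as the 3 genes with the highest r.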

Additional observations from a re-analysis of the deposited data

How the results depend on the processing

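Counts of members called were within 1.5 times the reported ones in all but the following. In neuroblasts against Neurog1-positive otic cells the count was 3 to 5 with 1 library left out. In neurons against neuroblasts it was 2 without Scrublet doublets, 2 without hindbrain-marked cells and 2 to 5 with 1 library left out. With 1 library left out it was 4 to 7 in Otx against Dlx5 otic cells and 2 to 5 in Dll1-positive against Dll1-negative cells. Hes1 in neuroblasts against Neurog1-positive otic cells turned to -0.63 without cells in 2 gates and to -0.86 with stricter gates, where it passed. The cause was not tested. Of the CD against WT comparisons, 0 of 60 passed under any alternative that could be tested, and leaving out a library there left no residual degrees of freedom and gave values only. No paired analysis was made, because there is 1 CD library and the labels state no pairing of CD and WT libraries. Another 113 changes of sign concerned values that passed in neither setting. Over all genes, the number called ran from 875 to 3042 in Neurog1-positive against Neurog1-negative otic cells (reported 2067), 1017 to 3731 in neuroblasts against Neurog1-positive otic cells (3210), 2242 to 4905 in neurons against neuroblasts (4726) and 6394 to 10970 in endothelium against Neurog1-negative otic cells (9900). It ran from 3810 to 6737 in Sox2 against Dlx5 otic cells (reported 6374), 1592 to 3962 in Otx against Dlx5 (3689), 717 to 2476 in Sox2 against Otx (1906), 31 to 342 in the Dll1 split (80) and 2182 to 5384 in the Jag1 split (5118). In CD against WT it ran from 6 to 199 in Neurog1-negative otic cells (reported 36), 5 to 96 in Neurog1-positive otic cells (28), 1 to 25 in neuroblasts (20), 8 to 106 in neurons (16), 0 to 54 in mesenchyme (6) and 0 to 57 in endothelium (41), and in the interaction from 0 to 96 (1). The single CD library and the few UMIs per neuroblast limit the precision of the results that use them.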
